A study of Mus musculus with 48 samples.

Results

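The 10 genes described here are Gpnmb, Mfge8, Spp1, Trem2, Tyrobp, Cd9, Fabp4, Fabp5, Lgals3 and Plin2, which are used as markers of lipid-associated macrophages. They were taken by symbol from 51789 gene IDs measured in 48 mouse macrophage libraries. Gpnmb and Mfge8 were chosen by measured values, as the strongest differences between ascites and thioglycollate macrophages in vehicle, and the other genes as known members of the same programme. Ranked by the p-value of that comparison among 9010 genes with an average of at least 3 for log2 CPM (counts per library of 1000000, after TMM scaling), Gpnmb was 1 and Mfge8 was 2. The next gene down that order, outside the set, was Rtp4 (log2 fold change 4.87, higher in ascites), against -3.81 for Gpnmb and -5.19 for Mfge8. The other 8 ranked from 28 (Fabp5) to 1247 (Cd9). Because these values chose the set, they are given as a description for all 10 genes and support nothing.

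The series asks what the compound AP-3-84 does to gene expression in macrophages of 8 populations, each exposed for 4 h to 10 µM of it or to the DMSO vehicle, with 3 libraries in each of the 16 groups. Ascites macrophages were sorted with magnetic beads for F4/80, a macrophage surface protein, from peritoneal washes taken 45 days after mice received ID8, a mouse ovarian tumour line; their strain is labelled C57BL/6 and their genotype B6(Cg)-Tyrc-2J/J. Thioglycollate (thio) macrophages were sorted by the same protein from wild-type C57BL/6 mice that had been injected 4 days earlier with 3% thioglycollate (1 ml), which draws macrophages into the cavity. The other 6 were bone marrow-derived macrophages of strain C57BL/6, wild-type (WT) or p53 knockout (KO), grown for 6 days with 10 ng/mL M-CSF. These were left unpolarized (M0) or given a further 24 h in LPS (100 ng/mL) plus IFN-γ (50 ng/mL), called M1, or in IL-4 plus IL-13 (10 ng/mL each), called M2, giving WT_M0, WT_M1, WT_M2, KO_M0, KO_M1 and KO_M2. The ages of the mice, the part of the p53 gene that was deleted, and whether replicates or treated and vehicle libraries came from separate animals or cultures are not stated in the labels. The p-values therefore measure the spread between libraries, which may be technical. Ascites and thioglycollate mice also differ in labelled genotype, so tumour, irritant and genotype cannot be told apart.

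Lipid-associated macrophages are cells that take up and store lipid in adipose tissue, tumours and injured tissue, and a related programme is known from microglia. Their best known switch is the lipid receptor Trem2, which signals through the adaptor Tyrobp (DAP12). Around it sit proteins for engulfing dying cells (Mfge8 bridges phosphatidylserine on dying cells to integrins), lysosomal and membrane glycoproteins (Gpnmb, Cd9), secreted proteins (Spp1, or osteopontin, and Lgals3, or galectin-3), the fatty acid carriers Fabp4 and Fabp5, and Plin2, a coat protein of lipid droplets. IL-4 and IL-13 are known inducers of lipid uptake and of PPARγ, a receptor that activates Fabp4.

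The plots and sentences give CPM, one value per library in the order of replicates 1, 2 and 3. Peritoneal libraries held 15532373 to 19417581 counts each and bone marrow-derived libraries 3081707 to 4645148. These sets were fitted apart and are not compared. All 10 genes passed the filter on low counts in both fits, so none dropped out; the lowest value was 10 counts, for Fabp4 in KO_M0 with AP-3-84. Summed CPM of 8 macrophage markers, among them Adgre1 (which encodes F4/80), Csf1r and Lyz2, ran from 6027 to 49110 across all groups, and none was at 0 in any library. The p53 target Cdkn1a was at 555 CPM or more in WT libraries and at 292 or less in KO libraries, while Trp53 itself overlapped (4.79 to 13.2 against 2.70 to 9.11 CPM). In bulk RNA, fewer cells of a type and less RNA per cell cannot be told apart. Among bone marrow-derived libraries, KO_M0 AP-3-84 replicates 1 and 2 stood apart from replicate 3, and WT_M0 vehicle 1, WT_M1 AP-3-84 3, WT_M2 vehicle 1 and KO_M2 vehicle 1 from their groups. By the chi-square per gene between replicates, so did KO_M1 vehicle 2 (26.9 and 16.6, against 11.1 for the other pair), KO_M1 AP-3-84 1 (19.3 and 15.5, against 4.37) and, among peritoneal libraries, ascites AP-3-84 1 (24.6 and 27.9, against 9.04). Their values are given where they touch a result.

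Gpnmb lies on mouse chromosome 6 (49036546 to 49070929, plus strand), Mfge8 on 7 (79133768 to 79149060, minus) and Lgals3 on 14 (47367751 to 47386160, plus), in GENCODE M21 on GRCm38; all 10 are annotated as protein-coding. The others are Spp1 on 5 (104435118 to 104441050, plus), Trem2 on 17 (48346401 to 48354147, plus), Tyrobp on 7 (30413760 to 30417585, plus), Cd9 on 6 (125460266 to 125494791, minus), Plin2 on 4 (86648386 to 86670060, minus), and Fabp4 (10204088 to 10208576, minus) with Fabp5 (10012548 to 10016607, plus) on 3. The 3′ reads of 3 genes can be split with near copies: of the 75-base stretches in the last 500 bases of their transcripts, 4.0% of those of Spp1 were shared with Gm42793, 1.3% of Plin2 with Gm12551 and 0.7% of Fabp5 with Gm6166, and none in the other 7 genes. The upstream sequences of Gpnmb, Mfge8 and Lgals3 are shown because Gpnmb and Mfge8 chose the set and Lgals3 was the member most like Mfge8 across the 12 bone marrow-derived groups (Pearson r of group means of log2 CPM 0.930 for Gpnmb with Mfge8, 0.977 for Mfge8 with Lgals3 and 0.893 for Gpnmb with Lgals3). Cd9, whose sequence is not printed, was also close to Lgals3 (0.926) and Mfge8 (0.857). The sequences are the 250 bases before a RefSeq start (GRCm38.p6), 5′ to 3′ on the gene's strand, with CG dinucleotides in capitals.

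Gpnmb, chr6:49036268-49036517, plus strand: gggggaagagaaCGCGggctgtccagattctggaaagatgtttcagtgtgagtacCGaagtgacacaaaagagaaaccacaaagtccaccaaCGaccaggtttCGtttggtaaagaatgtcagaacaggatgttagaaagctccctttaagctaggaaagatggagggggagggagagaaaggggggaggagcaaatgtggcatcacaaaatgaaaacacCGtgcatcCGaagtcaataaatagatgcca

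Mfge8, chr7:79149061-79149310, minus strand: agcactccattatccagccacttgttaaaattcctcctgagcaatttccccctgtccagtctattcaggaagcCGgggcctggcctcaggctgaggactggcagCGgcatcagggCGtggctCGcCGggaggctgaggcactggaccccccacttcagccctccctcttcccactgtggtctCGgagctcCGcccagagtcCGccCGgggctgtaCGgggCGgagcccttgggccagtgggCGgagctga

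Lgals3, chr14:47373610-47373859, plus strand: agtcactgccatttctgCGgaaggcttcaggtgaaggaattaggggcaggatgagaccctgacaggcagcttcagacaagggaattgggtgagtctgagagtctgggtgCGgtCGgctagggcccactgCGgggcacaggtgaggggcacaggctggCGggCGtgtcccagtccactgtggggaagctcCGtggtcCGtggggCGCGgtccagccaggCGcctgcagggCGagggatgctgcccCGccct

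The Gpnmb window was 47.2% GC, with 7 CG dinucleotides. Mfge8 and Lgals3 were richer, at 65.2% and 66.0% GC with 12 and 13 CG dinucleotides; 31.1%, 83.0% and 84.5% of 32851 mouse promoter windows had a lower GC content. The Lgals3 start lies inside the gene as GENCODE gives it, downstream of an earlier annotated start. Motifs were searched on both strands in the same 250 bases of the 7 members found in the RefSeq table (Fabp4, Fabp5 and Tyrobp were not matched; Spp1 has a pair of starts). GGGCGG, the GC box, was at 61, 50, 33 and 12 bases before the start in Mfge8, at 81 and 60 in Cd9 and at 7 in Lgals3, and is in 32.7% of all windows. The M-box forms TCACGTG and TCATGTG, bound by the MITF and TFE family, were in none of the members' windows (3.13% and 3.25% of all windows). GAGGAAGT, a PU.1 site, was in Spp1 at 113 bases before its first start (2.44% of windows). AGGTCA, a nuclear receptor half-site, was in Plin2 and Trem2 (14% of windows). TGANTCA, a loose form of the AP-1 site that takes any base at its centre, was in Trem2 (6.75% of windows). The match there read TGAATCA, without the central C or G of the AP-1 site, so it is not an AP-1 site. No matches overlapped each other. A match is a run of letters and not a bound site.

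All 10 genes were lower in ascites than in thioglycollate macrophages, by 36.5-fold for Mfge8 to 1.52-fold for Tyrobp in vehicle. Gpnmb, the lysosomal and surface glycoprotein, was at 621, 644 and 689.7 CPM in ascites and at 9143, 9274 and 9055 CPM in thioglycollate libraries, 14.1-fold apart in the means. Mfge8, the bridge to dying cells, was at 51.7, 54.9 and 56.2 CPM against 1978, 2016 and 1944 CPM. Each thioglycollate library was above each ascites library for both genes, and the values within a group lay close together. These vehicle values chose the set and carry no test. In that contrast 33.7% of genes were called, 13.4% lower in ascites. The values are plotted with those of the libraries that had AP-3-84.

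**Figure D1:**
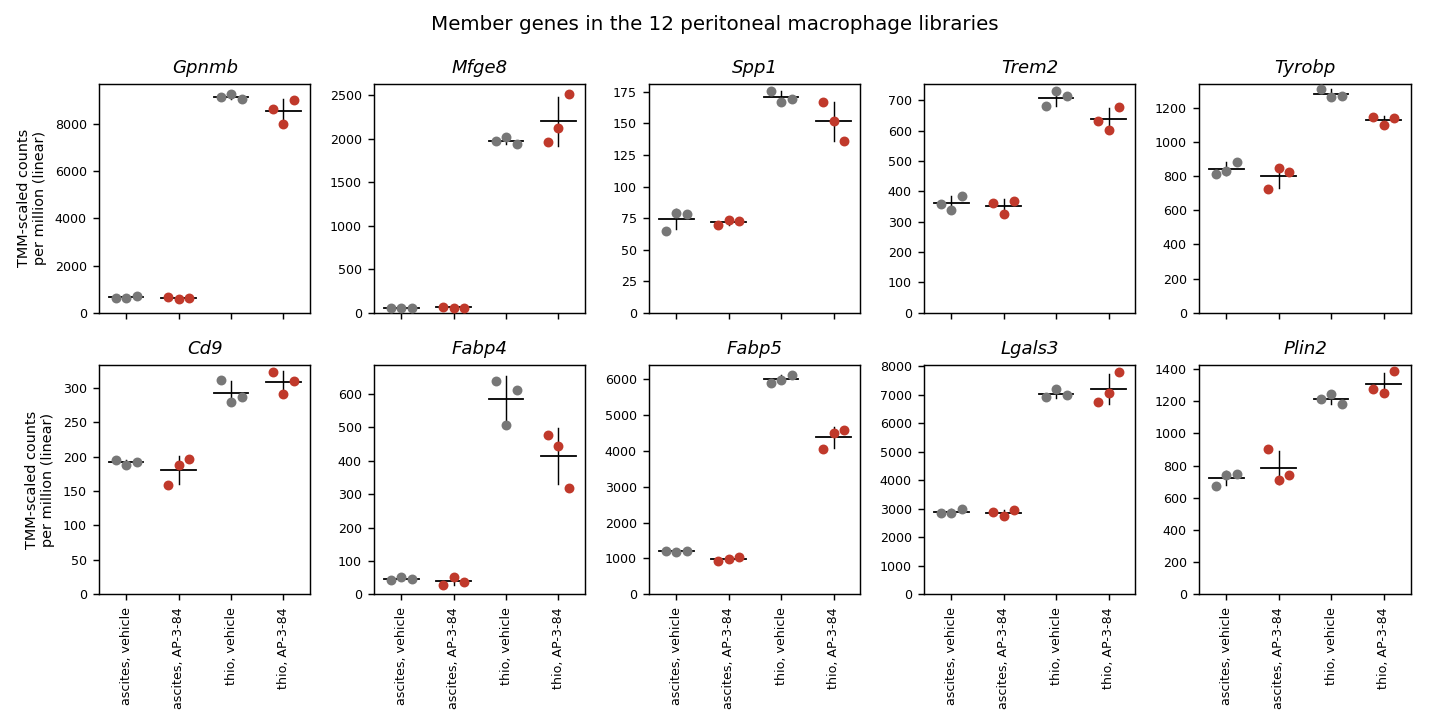
Level of each of the 10 genes (vertical axes, TMM-scaled CPM, linear, starting at 0) in the 4 peritoneal groups (horizontal axis); each point is 1 library, the horizontal bar is the mean and the vertical bar ± 1 SD, n = 3, with vehicle in grey and AP-3-84 in red. For every gene the 6 thioglycollate libraries sit above the 6 ascites libraries.

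The same contrast in the libraries with AP-3-84, which the choice of genes did not use, called 10 of 10 genes lower in ascites. There 36.8% of 16955 genes were called in either direction and 13.9% lower (edgeR quasi-likelihood test, Benjamini-Hochberg adjusted p under 0.05, as for every call below). These libraries may hold cells of the same mice as the vehicle libraries, so they are not shown to be independent of them. Gpnmb and Mfge8 were chosen by this contrast in vehicle, and neither was called for AP-3-84 in either fluid. Their values here, and their calls among the 10, are therefore a description and support nothing. Mfge8 was at 63.8, 58.9 and 60.3 CPM in ascites and 1959, 2128 and 2510.2 CPM in thioglycollate (log2 fold change -5.17, SE 0.088). Gpnmb was at 657, 597 and 632 against 8615, 8009 and 9014 CPM (log2 fold change -3.77, SE 0.064). For both, the lowest thioglycollate library was more than 10 times the highest ascites library.

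The fatty acid carriers came next. Fabp4 was at 29.1, 52.3 and 38.1 CPM in ascites and 478, 443 and 319 CPM in thioglycollate with AP-3-84 (log2 fold change -3.37, SE 0.24, adjusted p = 3.62e-06), after a 12.4-fold difference in vehicle (47.3 ± 5.32 and 586 ± 68.6 CPM, SD, n = 3). Fabp5 was at 929, 984 and 1049 against 4042, 4509 and 4567 CPM (log2 fold change -2.15, SE 0.061, adjusted p = 2.55e-14). Plin2, the droplet coat, differed less, with a log2 fold change of -0.73 ± 0.079 (SE, adjusted p = 8.87e-07). Fabp4 had the largest SE of the 10, but its groups did not overlap.

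The receptor and its adaptor differed by under 2-fold. Trem2 was at 363, 326 and 369 CPM in ascites and 632, 603 and 677 CPM in thioglycollate with AP-3-84 (log2 fold change -0.85, SE 0.068, adjusted p = 1.82e-08). For Tyrobp the log2 fold change was -0.50 ± 0.061 (SE, adjusted p = 4.34e-06). Among the secreted and membrane proteins, Lgals3 was lower by 2.52-fold, Spp1 by 2.12-fold and the tetraspanin Cd9 by 1.70-fold (adjusted p = 5.28e-12, 1.54e-08 and 3.21e-07). The groups did not overlap for any of the 10 genes, and each call was kept in all 12 alternatives, which include leaving out each library of the contrast in turn. The share of all genes without overlap was not computed, here or in the comparisons below, so a lack of overlap is a description only.

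Other genes of the same programmes did not all follow, in the same AP-3-84 libraries. The lists were chosen with results of these data known, and some genes are in more than 1 of them. Of 26 further markers of lipid- or disease-associated macrophages, 9 were higher and 14 lower in ascites (median log2 fold change -0.43, against -0.013 over all genes). The cathepsin Ctsl was lower (-1.94 ± 0.075, adjusted p = 1.35e-12), whereas Axl, a receptor tyrosine kinase for uptake of dying cells, was higher (4.50 ± 0.090, adjusted p = 4.64e-16). Of 16 genes of the MITF and TFE family and its lysosomal targets, 11 were lower and 2 higher (median -0.42), and the vacuolar proton pump subunit Atp6v0d2 was lowest (-4.56 ± 0.086, adjusted p = 2.67e-16). Atp6v0d2 had rank 4 in the order that put Gpnmb at 1.

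Of 19 genes of PPAR signalling and fatty acid oxidation that were tested, 5 were higher and 6 lower. Pparg, which encodes PPARγ, was lower (-1.45 ± 0.16, adjusted p = 1.35e-06). Of 17 tested lipid droplet genes 4 were higher and 8 lower, with Hilpda, an inhibitor of lipolysis, lowest (-1.97 ± 0.088, adjusted p = 9.05e-12). Of 20 genes of TREM2 and DAP12 signalling 11 were higher and 5 lower, of 23 genes of apoptotic cell uptake 10 and 8, and of 9 receptors for osteopontin and other RGD ligands 5 and 1. Related family members also differed in direction: in the tetraspanin family Cd81 was higher (1.56 ± 0.087, adjusted p = 1.78e-10) and Cd63 lower (-1.39 ± 0.058, adjusted p = 3.32e-12), and among galectins Lgals7 was higher (7.34 ± 0.36, adjusted p = 3.95e-11).

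Markers of epithelial, mesothelial or ID8 cells moved with this contrast. Of 12 such genes 11 were tested and 10 were higher in ascites with AP-3-84. Their summed CPM was 277.9 to 308.0 in ascites and 6.15 to 6.29 in thioglycollate with AP-3-84, and 236.7 to 280.2 against 5.21 to 7.11 in vehicle. Lgals7 is itself one of these markers. Macrophage markers summed to 25240 to 29620 CPM in ascites and 28080 to 33280 CPM in thioglycollate with AP-3-84. In vehicle they summed to 29990 to 31790 and 34870 to 35310 CPM. With AP-3-84, M2 markers summed to 864.9 to 900.9 CPM in ascites and 294.5 to 297.6 CPM in thioglycollate. Genes of the LPS and IFN-γ response summed to 3185 to 3551 and 4898 to 5750 CPM, and neutrophil markers to 163.5 to 195.8 and 304.5 to 318.4 CPM. The part of the epithelial-type RNA and of these lists in the members' differences was not tested. Adipocyte markers (6 genes) summed to 28.11 to 35.18 CPM in ascites and 15.38 to 22.22 CPM in thioglycollate with AP-3-84. In vehicle the sums were 26.69 to 31.78 and 20.67 to 22.77 CPM. Of these genes, Lep was at 0 counts in every library and Adipoq never above 4 counts in the peritoneal ones, while Fabp4 had at least 462. The part of adipocyte RNA was not tested.

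AP-3-84 changed few of these genes. Across 8 populations and 10 genes, 8 of 80 pairs were called, all lower with the compound, where 3.48% of all tested pairs of gene and population were called. Fabp5 accounted for both calls in peritoneal macrophages, and the other 6 were in KO_M0. In thioglycollate macrophages Fabp5 went from 5892, 5987 and 6128 CPM in vehicle to 4042, 4509 and 4567 CPM with AP-3-84, 1.37-fold lower (log2 fold change -0.46, SE 0.058, adjusted p = 1.34e-04). In ascites macrophages it went from 1217, 1183 and 1205 to 929, 984 and 1049 CPM, 1.22-fold lower (log2 fold change -0.28, SE 0.058, adjusted p = 0.013). All 3 treated libraries lay below all 3 vehicle libraries in both populations. Of all genes, 4.32% were called in thioglycollate (1.82% lower) and 1.79% in ascites (0.100% lower).

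Gpnmb and Mfge8 were not called in either fluid: the log2 fold changes of Gpnmb were -0.10 ± 0.058 in thioglycollate and -0.053 ± 0.058 in ascites, and those of Mfge8 0.15 ± 0.073 and 0.17 ± 0.077 (SE). The thioglycollate call on Fabp5 was kept in every alternative. The ascites call was lost without 1 of ascites vehicle replicates 1, 2 and 3 (log2 fold changes -0.30 to -0.28, adjusted p from 0.0509 to 0.0688). It was also lost with only the groups compared in the fit (log2 fold change -0.29, adjusted p = 0.0555). The difference between the ascites and thioglycollate responses of Fabp5 was 0.17 ± 0.082 (SE, log2 scale, adjusted p = 0.653), which did not pass. The other 9 genes ranged from -0.50 (Fabp4 in thioglycollate, adjusted p = 0.306) to 0.17 (Mfge8 in ascites, adjusted p = 0.45). Fabp4 went from 638, 508 and 613 to 478, 443 and 319 CPM in thioglycollate macrophages, without overlap. Among the other listed genes the autophagy receptor Sqstm1 rose in both fluids (0.90 ± 0.085, adjusted p = 7.98e-06 in thioglycollate; 0.88 ± 0.085, adjusted p = 7.71e-06 in ascites), Hilpda rose in thioglycollate (0.65 ± 0.084, adjusted p = 1.51e-04) and Axl fell there (-0.70 ± 0.085, adjusted p = 8.50e-05).

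In KO_M0, all 10 genes were below vehicle on average and 6 were called lower, where 20.7% of 11779 genes were called and 8.57% were called lower. Trem2 was at 566, 659 and 699 CPM in vehicle and at 125, 89.8 and 423 CPM with AP-3-84 (log2 fold change -1.59, SE 0.31, adjusted p = 6.02e-04). Gpnmb was at 3315, 3483 and 3575 and then at 718, 492 and 2856 CPM (log2 fold change -1.35, SE 0.46, adjusted p = 0.0361). Lgals3 was at 4769, 5526 and 5852 and at 1406, 1125 and 4401 CPM (log2 fold change -1.22, SE 0.34, adjusted p = 0.011). In all 3 genes the drop was in treated replicates 1 and 2, and replicate 3 lay between them and the vehicle libraries. Fabp5 (log2 fold change -0.93, SE 0.30, adjusted p = 0.0264), Plin2 (log2 fold change -1.11, SE 0.35, adjusted p = 0.0238) and Tyrobp (log2 fold change -0.52, SE 0.19, adjusted p = 0.0495) were also called.

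Markers of the response to LPS and IFN-γ moved with those libraries. The 8 genes Nos2, Il1b, Il6, Il12b, Saa3, Marco, Cxcl9 and Cd40 summed to 4851, 3738 and 902.4 CPM in replicates 1, 2 and 3 of KO_M0 with AP-3-84, and to 60.6 to 147.1 CPM in its vehicle libraries. Macrophage markers ran from 18750 to 40170 CPM in treated libraries and from 33360 to 40360 CPM in vehicle. The summed resident peritoneal macrophage markers ran from 112.5 to 393.4 against 19.4 to 24.3 CPM, with 3 to 5 of the 7 at 0 in treated libraries. M2 markers summed to 84.11 to 312.1 against 373.3 to 481.1 CPM, and neutrophil markers to 293.8 to 496.4 against 581.8 to 711.4 CPM. Their part in the result was not tested. Without replicates 1 and 2, an alternative chosen after seeing the data that leaves 1 treated library, none of the 6 was called (edgeR adjusted p from 0.402 for Trem2 to 0.931 for Gpnmb). Trem2 then had a log2 fold change of -0.59, and Gpnmb -0.26. With the lone library, its spread is assumed to be that of the other groups.

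Leaving out single libraries also ended calls in KO_M0. The Gpnmb call was lost without 1 of KO_M0 vehicle replicates 1, 2 and 3 or KO_M0 AP-3-84 replicates 1 and 2 (log2 fold changes -1.38 to -0.95, adjusted p from 0.0643 to 0.207). That on Lgals3 was lost without 1 of KO_M0 AP-3-84 replicates 1 and 2 (log2 fold changes -0.96 to -0.89, adjusted p from 0.085 to 0.0972), and that on Tyrobp without 1 of KO_M0 vehicle replicates 1, 2 and 3 or KO_M0 AP-3-84 replicates 1 and 2 (log2 fold changes -0.56 to -0.34, adjusted p from 0.0704 to 0.317). For Fabp5 the same happened without 1 of KO_M0 vehicle replicates 1 and 3 or KO_M0 AP-3-84 replicates 1 and 2 (log2 fold changes -0.93 to -0.63, adjusted p from 0.0574 to 0.173), and for Plin2 without 1 of KO_M0 vehicle replicates 2 and 3 or KO_M0 AP-3-84 replicates 1 and 2 (log2 fold changes -1.11 to -0.88, adjusted p from 0.0526 to 0.139). Trem2 alone among the 6 kept its call in each of these. With only the KO_M0 libraries in the fit, none of the 6 passed (edgeR adjusted p from 0.0529 for Plin2 to 0.247 for Gpnmb). Other alternatives added calls. DESeq2 called 9 of the 10 genes lower, adding Cd9, Fabp4 and Mfge8 (DESeq2 adjusted p = 0.0370, 0.0301 and 0.0388). Its share of all genes called is not given here. Without KO_M0 AP-3-84 replicate 3, edgeR called the same additional genes (adjusted p = 2.72e-05, 0.0115 and 0.0160).

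**Figure D2:**
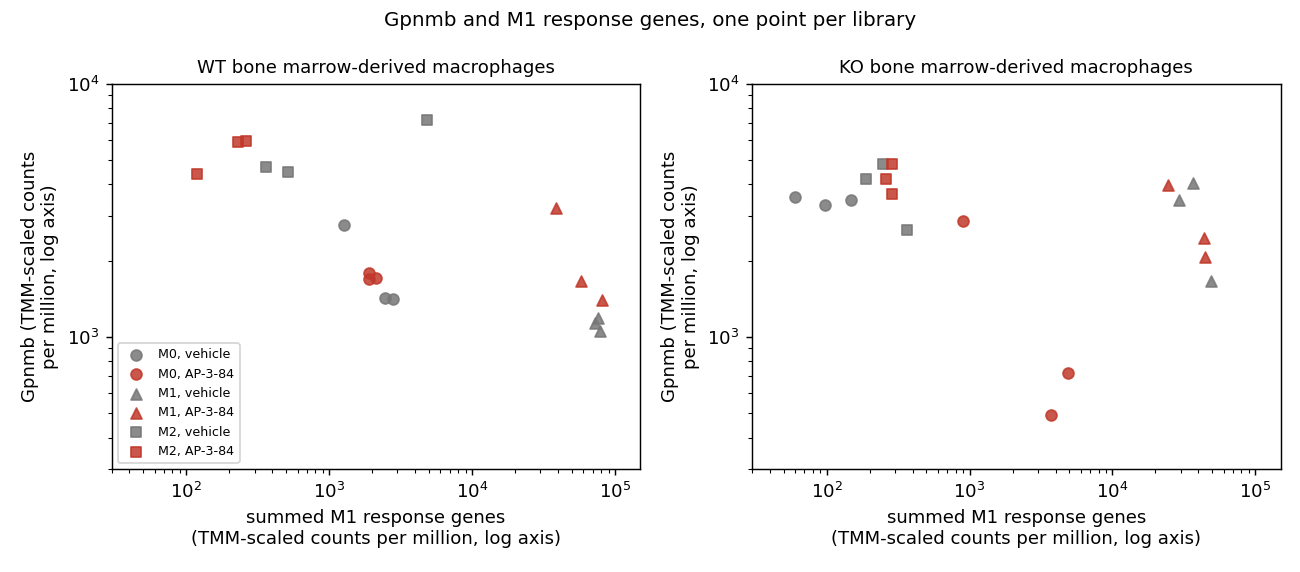
Gpnmb (vertical axis) against the summed CPM of 8 LPS and IFN-γ response genes (horizontal axis), both TMM-scaled CPM on log axes, in WT (left) and KO (right) bone marrow-derived macrophages; each symbol is 1 library, its shape the polarization and its colour the treatment. In KO_M0, AP-3-84 replicates 1 and 2 (718 and 492 CPM of Gpnmb) lie below and to the right of the vehicle libraries, while replicate 3 (2856 CPM) is nearer to them in Gpnmb and also to their right, at 902.4 CPM against 60.6 to 147.1.

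None of the 10 genes was called in WT_M0, WT_M1, WT_M2, KO_M1 or KO_M2 by edgeR, and none by DESeq2. At the adjusted threshold edgeR called 0.144%, 0.0170%, 1.21%, 0% and 0.0509% of all 11779 genes in these populations. At an unadjusted p under 0.05 the members' counts were 0, 3, 2, 0 and 1. The share of all genes at that unadjusted threshold is not given here. The calls depend on the fit. With no filter on low counts, edgeR called 3 members in WT_M0 (Fabp4, Plin2 and Spp1), 6 in WT_M1 (Gpnmb, Mfge8, Lgals3, Trem2, Fabp5 and Spp1), 3 in WT_M2 (Fabp4, Fabp5 and Spp1) and 1 in KO_M2 (Spp1). The SE was smaller in that fit, 0.175 against 0.45 for Gpnmb in WT_M1. Its share of all genes called is not given here, so these counts are not read as a result about the members. With only the groups compared, Trem2 in WT_M1 (log2 fold change 0.76, adjusted p = 0.0187) and Fabp5 in WT_M2 were called, and without KO_M2 vehicle replicate 1 so was Tyrobp in KO_M2 (log2 fold change 0.77, adjusted p = 0.0121). In WT_M1 all 10 genes lay above vehicle on average, with a median log2 fold change of 0.72 against 0.013 over all genes. Gpnmb was at 1133, 1188 and 1051 CPM in vehicle and 1398, 1659 and 3218 CPM with AP-3-84 (log2 fold change 0.90 ± 0.45 (SE), adjusted p = 0.69). Replicate 3 of the treated group was highest, and its summed LPS and IFN-γ response genes were 38540 CPM, against 57650 to 81190 CPM in replicates 1 and 2 and 71890 to 79040 CPM in vehicle.

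In WT_M2, Fabp4 went from 45.6, 109 and 32.9 CPM in vehicle to 25.0, 27.1 and 17.0 CPM with AP-3-84 (log2 fold change -1.44 ± 0.52 (SE), adjusted p = 0.206), and Fabp5 from 1590.3, 1167 and 1097 to 715, 718 and 752 CPM (-0.82 ± 0.30, adjusted p = 0.216). Their groups did not overlap, but the differences did not pass. Fabp5 did pass with only the groups compared (log2 fold change -0.82, adjusted p = 0.0418), and both passed with no filter on low counts (adjusted p = 2.16e-08 for Fabp4 and 3.50e-04 for Fabp5). WT_M2 vehicle replicate 1 had 4816 CPM of LPS and IFN-γ response genes, against 362.9 to 514.8 CPM in the other two. In WT_M0, Spp1 was scattered, at 434, 343 and 178 CPM in vehicle and 88.8, 122 and 325 CPM with AP-3-84. With 3 libraries a group, these intervals are wide: for Gpnmb in WT_M0 the log2 difference was -0.11 ± 0.45 (SE), and a missed threshold does not show that the compound had no effect.

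**Figure D3:**
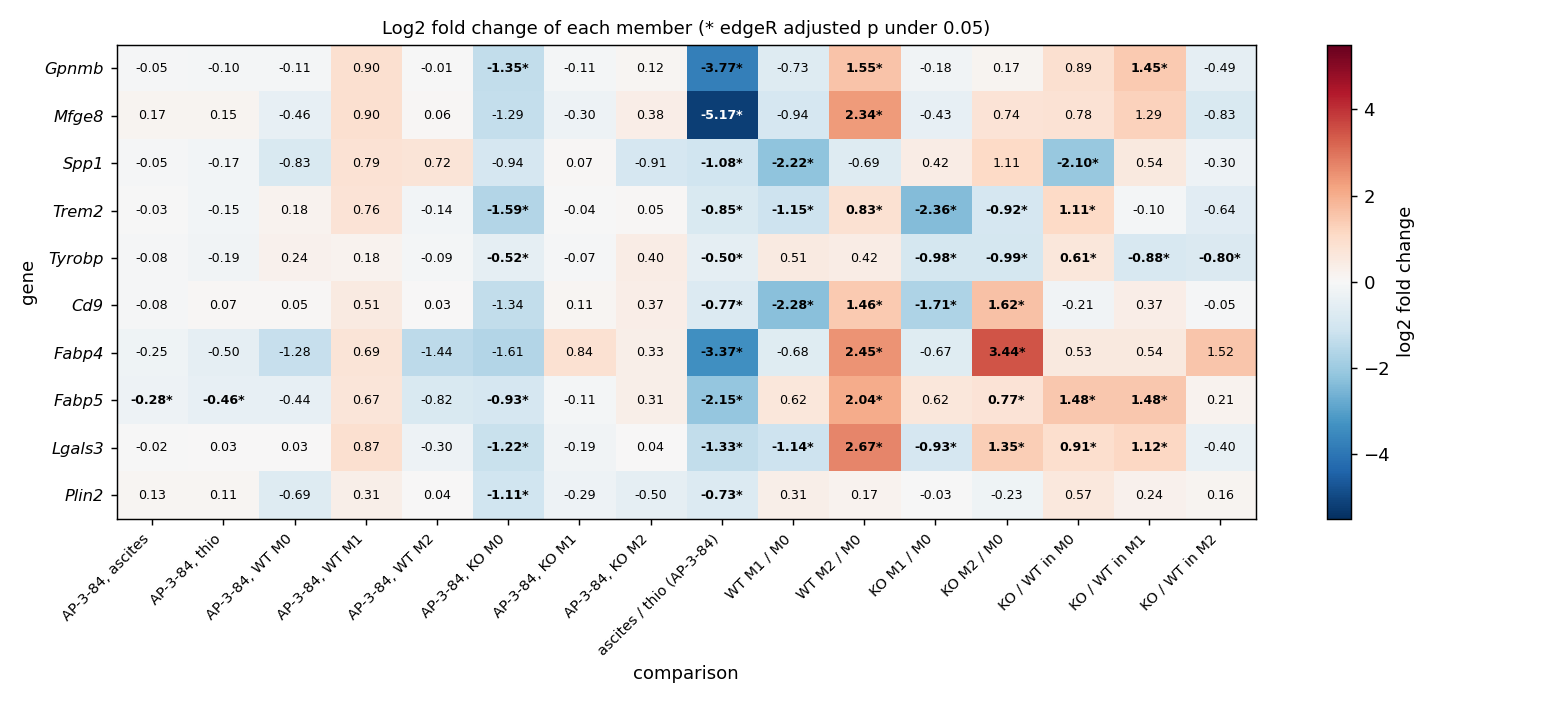
Log2 fold change (colour and number) of each of the 10 genes (rows) in 16 comparisons (columns); bold numbers with an asterisk have an edgeR adjusted p under 0.05. Of 10 genes, 10 are called in the ascites column with AP-3-84, 4 to 7 in each polarization column and 5, 4 and 1 for KO against WT in M0, M1 and M2, and among the 8 AP-3-84 columns they lie in Fabp5 and in KO_M0.

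Polarization gave more calls than the compound did, on these genes as over all genes (30.4% against 3.48% of all tested pairs). The larger count is therefore not particular to the members. In vehicle libraries, 21 of 40 pairs of gene and comparison were called, 11 higher and 10 lower than in M0. In the main fit IL-4 and IL-13 gave 11 rises and 2 falls, and LPS with IFN-γ gave 8 falls and no rise. Some alternatives did call rises in M1. With only the groups compared, these were Tyrobp in WT (log2 fold change 0.48, adjusted p = 0.00176) and Fabp5 in KO (0.62, adjusted p = 0.0193). Fabp5 in WT was called without WT_M0 vehicle replicate 1 (1.04, adjusted p = 0.0264). With no filter on low counts, Fabp5 was called higher in both genotypes, and Gpnmb and Mfge8 in WT and Fabp4 in KO lower. M1 and M2 are each set against the same M0 libraries, so the comparisons of a genotype share controls and are given side by side only. The M2 markers such as Arg1 and Retnla (7 genes) summed to 9224 to 11260 CPM in WT_M2 and 6373 to 13540 CPM in KO_M2, and to 246.4 to 481.1 CPM in M0.

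**Figure D4:**
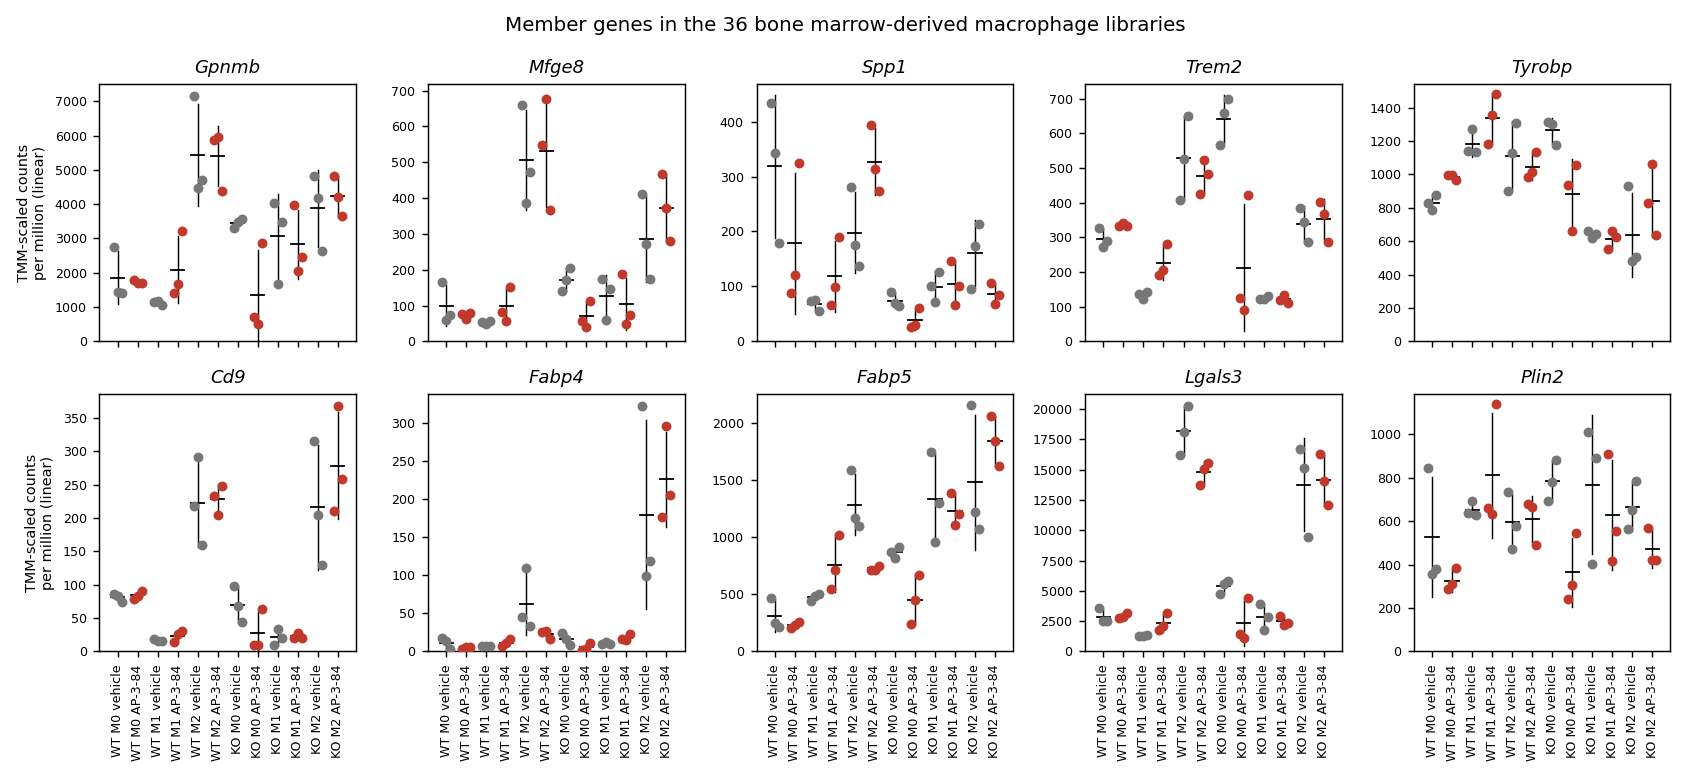
Level of each of the 10 genes (vertical axes, TMM-scaled CPM, linear, starting at 0) in the 12 bone marrow-derived groups (horizontal axis); each point is 1 library, the horizontal bar is the mean and the vertical bar ± 1 SD, n = 3, with vehicle in grey and AP-3-84 in red. The M2 groups are highest for Lgals3 and Cd9, and in KO_M0 with AP-3-84 replicate 3 stands above replicates 1 and 2.

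In WT cells, 7 of 10 genes rose with IL-4 and IL-13, where 23.4% of genes were called and 12.7% higher. Lgals3, which encodes the lectin galectin-3, was at 3574, 2486 and 2526 CPM in M0 and 16217, 18133 and 20262 CPM in M2, 6.36-fold higher (log2 fold change 2.67, SE 0.35, adjusted p = 2.83e-06). Mfge8 was at 167, 60.0 and 72.8 and 661, 387 and 473 CPM, 5.07-fold higher (log2 fold change 2.34, SE 0.50, adjusted p = 0.00118). Gpnmb was at 2754, 1425 and 1405 and 7159, 4466 and 4696 CPM (log2 fold change 1.55, SE 0.46, adjusted p = 0.0155). In each case all 3 M2 libraries lay above all 3 M0 libraries, although WT_M0 replicate 1 was above the other two. That library had the fewest LPS and IFN-γ response transcripts of its group (1265 CPM in sum, against 2471 and 2801), and WT_M2 replicate 1, highest for Gpnmb and Mfge8, had the most of its own (4816 CPM); their part was not tested. The carriers Fabp4 and Fabp5 rose 5.47-fold and 4.12-fold (adjusted p = 0.00165 and 1.58e-05), Cd9 2.75-fold and Trem2 1.78-fold (adjusted p = 0.025 and 0.0469). Spp1, Tyrobp and Plin2 did not pass.

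Several of these calls ended when 1 library was left out. The M2 call on Gpnmb was lost without 1 of WT_M0 vehicle replicates 2 and 3 or WT_M2 vehicle replicate 1 (log2 fold changes 1.29 to 1.38, adjusted p from 0.066 to 0.0778), that on Trem2 without 1 of WT_M0 vehicle replicates 1, 2 and 3 or WT_M2 vehicle replicates 2 and 3 (log2 fold changes 0.66 to 0.91, adjusted p from 0.0748 to 0.188) and that on Cd9 without 1 of WT_M0 vehicle replicates 1, 2 and 3 or WT_M2 vehicle replicate 2 (log2 fold changes 1.22 to 1.50, adjusted p from 0.0601 to 0.0965). Scaling by total counts ended the calls on Cd9 (log2 fold change 1.25, adjusted p = 0.0558) and Trem2 (log2 fold change 0.63, adjusted p = 0.154). Fabp4 was not called with only the groups compared (log2 fold change 2.46, adjusted p = 0.076). The calls on Lgals3, Mfge8 and Fabp5 were kept in every alternative.

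Other listed genes rose with them in WT_M2. Of 26 further lipid- or disease-associated macrophage markers 17 were higher and 0 lower (median log2 fold change 0.95, all genes 0.011). Itgax, the integrin chain CD11c, rose most (7.99 ± 0.75, adjusted p = 1.91e-08). Of 16 MITF and TFE genes 8 were higher and 0 lower, led by Atp6v0d2 (5.66 ± 0.67, adjusted p = 8.66e-07). Of 16 lipid droplet genes 7 rose and 3 fell, and of 18 PPAR genes 6 rose and 0 fell, with Ppargc1b, a coactivator, rising most (2.31 ± 0.38, adjusted p = 3.13e-05). Of 19 TREM2 and DAP12 signalling genes 2 rose and 7 fell, Trem1, a receptor that also uses DAP12, falling most (-2.71 ± 0.46, adjusted p = 5.71e-05).

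With LPS and IFN-γ, 4 of 10 genes fell in WT cells, where 15.5% of genes were called and 7.49% lower. Cd9, the tetraspanin, was at 86.1, 83.6 and 73.6 CPM in M0 and 18.5, 15.6 and 15.9 CPM in M1 (log2 fold change -2.28, SE 0.51, adjusted p = 0.00333). Spp1 was at 434, 343 and 178 and 73.6, 75.8 and 55.6 CPM (log2 fold change -2.22, SE 0.47, adjusted p = 0.00197). Trem2 and Lgals3 fell 2.22-fold and 2.20-fold (adjusted p = 0.0112 and 0.0208). Groups did not overlap for these 4, with the share over all genes not computed. Macrophage markers summed to 30440 to 38890 CPM in WT_M0 and 43900 to 46970 CPM in WT_M1, and their part was not tested. The Trem2 call was lost without WT_M1 vehicle replicate 2 (log2 fold change -1.09, adjusted p = 0.0527) and that on Lgals3 without 1 of WT_M0 vehicle replicate 1 or WT_M1 vehicle replicates 1, 2 and 3 (log2 fold changes -1.18 to -0.95, adjusted p from 0.0551 to 0.0883). Gpnmb was at 1133, 1188 and 1051 CPM in WT_M1 and Mfge8 at 52.8, 47.2 and 56.1 CPM; neither difference from M0 passed (adjusted p = 0.308 and 0.215). Lpl, the lipoprotein lipase of the further markers, fell most of that list (-2.31 ± 0.31, adjusted p = 1.12e-05).

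In KO cells, 4 of 10 genes were lower in M1 (44.5% of genes called, 21.8% lower). Trem2 was at 566, 659 and 699 CPM in M0 and 121, 121 and 131 CPM in M1, 5.15-fold lower (log2 fold change -2.36, SE 0.32, adjusted p = 1.40e-06). Its adaptor Tyrobp was at 1316, 1300.2 and 1178 and 661, 619 and 644 CPM (log2 fold change -0.98, SE 0.19, adjusted p = 1.07e-04). Both fell, in groups that did not overlap. Macrophage markers moved with this contrast, summing to 33360 to 40360 CPM in KO_M0 and 16370 to 25560 CPM in KO_M1, as did neutrophil markers (581.8 to 711.4 against 1554 to 2575 CPM) and fibroblast markers (161.2 to 287.8 against 97.5 to 134.8 CPM); their part was not tested. Cd9 fell 3.27-fold and Lgals3 1.91-fold (adjusted p = 0.00731 and 0.0253), the latter call being lost without 1 of KO_M0 vehicle replicates 2 and 3 or KO_M1 vehicle replicates 2 and 3 (log2 fold changes -0.93 to -0.67, adjusted p from 0.0587 to 0.142). Gpnmb was at 4035, 1666 and 3484 CPM in KO_M1, with replicate 2 under the others, and its difference from KO_M0 was -0.18 ± 0.45 (SE, log2 scale, adjusted p = 0.778).

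In KO_M2, 4 genes were higher and 2 lower than in KO_M0 (38.0% of genes called, 20.1% higher and 18.0% lower). Fabp4 was at 24.6, 16.0 and 8.93 CPM in M0 and 323, 98.9 and 119 CPM in M2, 10.8-fold higher (log2 fold change 3.44, SE 0.54, adjusted p = 2.07e-05). Lgals3 was at 4769, 5526 and 5852 and 16707, 15126 and 9423 CPM (log2 fold change 1.35, SE 0.34, adjusted p = 0.00249). Cd9 and Fabp5 rose 3.07-fold and 1.71-fold (adjusted p = 0.00884 and 0.0412). Trem2 and Tyrobp fell, to 386, 346 and 287 CPM and 928, 480.2 and 505 CPM (log2 fold change -0.92, SE 0.31, adjusted p = 0.0192 for Trem2; log2 fold change -0.99, SE 0.19, adjusted p = 1.26e-04 for Tyrobp). KO_M2 vehicle replicate 1 held the highest Fabp4, Fabp5, Cd9 and Tyrobp of its group, and its M2 markers summed to 13540 CPM, the highest of the 3. Macrophage markers moved with this contrast, summing to 33360 to 40360 CPM in KO_M0 and 6027 to 18710 CPM in KO_M2. Fibroblast markers did too (161.2 to 287.8 against 47.5 to 78.9 CPM). Adipocyte markers (6 genes) summed to 37.55 to 47.06 CPM in KO_M0 and 13.89 to 39.27 CPM in KO_M2. Among them Adipoq went the other way, at 0 in KO_M0 and 0.496 to 7.16 CPM in KO_M2. The part of these lists was not tested.

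The KO_M2 calls on Fabp4, Lgals3 and Tyrobp were kept in every alternative. That on Fabp5 was lost without 1 of KO_M0 vehicle replicates 1, 2 and 3 or KO_M2 vehicle replicate 1 (log2 fold changes 0.40 to 0.80, adjusted p from 0.0831 to 0.313), that on Cd9 without 1 of KO_M0 vehicle replicate 3 or KO_M2 vehicle replicate 1 (log2 fold changes 1.25 to 1.36, adjusted p from 0.054 to 0.0572) and that on Trem2 without 1 of KO_M0 vehicle replicate 3 or KO_M2 vehicle replicate 3 (log2 fold changes -0.86 to -0.81, adjusted p from 0.0575 to 0.0852). Fabp5 was also lost with total-count scaling (log2 fold change 0.70, adjusted p = 0.0698). Of the 26 further macrophage markers 12 were higher and 5 lower in KO_M2, with Cst7, a cystatin, rising most (4.88 ± 0.63, adjusted p = 7.40e-07) and Apoe, the lipid carrier, falling most (-6.53 ± 1.00, adjusted p = 1.70e-05). In KO_M1 Apoe also fell most of that list (-7.04 ± 1.02, adjusted p = 6.56e-06).

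Between genotypes, 10 of 30 pairs were called in vehicle, 7 higher and 3 lower in KO, where 16.1% of all tested pairs were called. In M0, Fabp5 was at 469, 253 and 213 CPM in WT and 872, 818 and 914 CPM in KO, 2.79-fold higher (log2 fold change 1.48, SE 0.30, adjusted p = 5.34e-04). Trem2 was at 326, 273 and 289.6 and 566, 659 and 699 CPM (log2 fold change 1.11, SE 0.31, adjusted p = 0.00623). Spp1 went the other way, from 434, 343 and 178 to 89.1, 69.9 and 64.1 CPM (log2 fold change -2.10, SE 0.47, adjusted p = 0.00134). Lgals3 and Tyrobp were higher by 1.88-fold and 1.52-fold (adjusted p = 0.037 and 0.0134). In M0 33.2% of genes were called, 16.4% higher and 16.8% lower. None of the 5 pairs of groups overlapped, with the share over all genes not computed. LPS and IFN-γ response genes moved with genotype there, with summed CPM of 1265 to 2801 in WT_M0 and 60.6 to 147.1 in KO_M0. Of 6 fibroblast markers 5 were tested and 3 were higher in KO_M0, with sums of 22.8 to 26.3 CPM in WT_M0 and 161.2 to 287.8 CPM in KO_M0. The part of both lists was not tested.

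In M1, Fabp5 was again 2.79-fold higher in KO (443, 491 and 504 against 1749, 957 and 1302 CPM; log2 fold change 1.48, SE 0.30, adjusted p = 0.00231). Gpnmb was 2.72-fold and Lgals3 2.17-fold higher (adjusted p = 0.0394 and 0.0299), with KO_M1 replicate 2 the lowest of its group for both. Tyrobp was lower (log2 fold change -0.88, SE 0.19, adjusted p = 0.00288), at 1138, 1275 and 1134 CPM in WT and 661, 619 and 644 CPM in KO. These 4 calls stand against 11.6% of genes (5.93% higher and 5.71% lower). Several marker sums moved with genotype in M1, without overlap between groups. Macrophage markers summed to 43900 to 46970 CPM in WT_M1 and 16370 to 25560 CPM in KO_M1, and LPS and IFN-γ response genes to 71890 to 79040 and 29330 to 49020 CPM. Of 6 fibroblast markers 5 were tested and 3 were higher in KO (21.7 to 46.6 against 97.5 to 134.8 CPM in sum), and neutrophil markers summed to 747.4 to 962 and 1554 to 2575 CPM; the part of these in the M1 differences was not tested. In M2, 1 gene was called, Tyrobp (log2 fold change -0.80, SE 0.19, adjusted p = 0.0138), against 3.56% of genes (2.34% lower), at 899, 1130.3 and 1308 CPM in WT and 928, 480.2 and 505 CPM in KO. Those groups overlapped, since KO_M2 replicate 1 was above WT_M2 replicate 1. Macrophage markers summed to 25300 to 31460 CPM in WT_M2, and to 18710, 9517 and 6027 CPM in KO_M2 replicates 1, 2 and 3; their part in the Tyrobp difference was not tested.

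The calls on Fabp5 in M0 and M1, on Trem2 and Spp1 in M0 and on Tyrobp in M1 were kept in every alternative. The Lgals3 call was lost without 1 of WT_M0 vehicle replicates 2 and 3 or KO_M0 vehicle replicates 2 and 3 (log2 fold changes 0.82 to 0.89, adjusted p from 0.0782 to 0.119) in M0 and without 1 of WT_M1 vehicle replicates 1, 2 and 3 or KO_M1 vehicle replicates 1 and 3 (log2 fold changes 0.82 to 1.15, adjusted p from 0.0761 to 0.178) in M1. For Gpnmb in M1 the call was lost without 1 of WT_M1 vehicle replicates 1, 2 and 3 or KO_M1 vehicle replicates 1 and 3 (log2 fold changes 1.20 to 1.49, adjusted p from 0.097 to 0.155). Tyrobp was not called without WT_M0 vehicle replicate 2 (log2 fold change 0.56, adjusted p = 0.0525) in M0, nor in M2 without 1 of WT_M2 vehicle replicate 3 or KO_M2 vehicle replicates 2 and 3 (log2 fold changes -0.69 to -0.63, adjusted p from 0.0662 to 0.128), nor in M2 with only the groups compared (log2 fold change -0.80, adjusted p = 0.3). Of the 26 further markers, 12 were higher and 4 lower in KO_M0 than in WT_M0 (median log2 fold change 0.48, all genes 0.027), with Apoe highest (3.70 ± 0.87, adjusted p = 0.0022). Of 20 genes of apoptotic cell uptake 12 were higher and 0 lower, with Axl highest (3.06 ± 0.42, adjusted p = 4.81e-06).

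The polarization response itself differed between genotypes in 8 of 20 pairs, where 23.9% of all pairs were called (20.7% for M1 and 27.1% for M2). For Tyrobp the M1 difference was 0.51 ± 0.19 in WT and -0.98 ± 0.19 in KO (log2 scale, SE; difference -1.49 ± 0.27, adjusted p = 1.53e-04). Its M2 difference was 0.42 ± 0.19 in WT and -0.99 ± 0.19 in KO (difference -1.41 ± 0.27, adjusted p = 2.81e-04). Trem2 rose in WT_M2 and fell in KO_M2 (difference -1.75 ± 0.43, adjusted p = 0.00371). These 3 calls were kept in all 18 alternatives. The starting level in M0 differed for both genes, as given above. AP-3-84 responses differed between populations in 6 of 80 pairs, where 4.86% of all pairs were called, and each of the 6 involved KO_M0 (17.0% of genes called against WT_M0, 6.12% against KO_M1 and 15.8% against KO_M2). In the other 5 such contrasts no member was called by edgeR or DESeq2: ascites against thioglycollate (0.118% of genes called, 1 member at an unadjusted p under 0.05), KO against WT in M1 (0.00849%, 1) and in M2 (1.77%, 3), and M1 (0.0255%, 4) and M2 (0.136%, 1) against M0 in WT. Calls did appear there in some alternatives. Without KO_M2 vehicle replicate 1, Fabp4, Fabp5 and Tyrobp were called for KO against WT in M2 (adjusted p = 0.0269, 0.0297 and 0.0219). With no filter on low counts, 3 members were called for KO against WT in M1, 3 in M2, 6 for M1 against M0 in WT and 1 for M2. The share of all genes called in that fit is not given here.

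Across the 12 bone marrow-derived groups, the orders of Gpnmb, Mfge8 and Lgals3 ran alike. Mean Lgals3 was highest in WT_M2 vehicle (18204 ± 2024 CPM, SD, n = 3) and lowest in WT_M1 vehicle (1298 ± 43.5 CPM), with the 4 M2 groups at the top. Gpnmb also ran from 5440.3 ± 1493 CPM in WT_M2 vehicle to 1124 ± 68.9 CPM in WT_M1 vehicle. For Gpnmb and Mfge8 the ranges of each pair of neighbours in the order overlapped, and for Lgals3 WT_M2 vehicle stood apart from the next group, as did KO_M2 vehicle from KO_M0 vehicle and KO_M0 vehicle from WT_M0 with AP-3-84. The orders of Tyrobp and Plin2 were different, and both were highest in WT_M1 with AP-3-84 (1340.2 ± 148 and 811 ± 286 CPM).

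By Pearson correlation of log2(CPM + 1) group means over the same 12 groups, among 4713 genes that varied by at least 1 log2 unit, the genes most like Gpnmb were Haus8 (r = 0.942), Tceal9 (0.939), Dtnbp1 (0.935), its fellow member Mfge8 (0.930) and Il7r (0.928). Mfge8 was most like Lgals3 (0.977) and Lgals3 most like Vwf (0.993), Atp6v0d2 (0.988) and Anpep (0.986). Trem2 was most like Pnpla7 (0.967) and Lpin1 (0.963), Tyrobp like Tmem250-ps (0.983), Cd9 like Dnase2a (0.985) and Fabp4 like P2ry14 (0.964). The groups share libraries' depth and polarization, and these values are a description.

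Within groups, Gpnmb and Lgals3 also deviated together, with r = 0.911 over the deviations of 36 bone marrow-derived libraries from their group means. The value was 0.864 for Gpnmb with Mfge8, 0.843 for Trem2 with Lgals3 and -0.0588 for Tyrobp with Plin2. In the 12 peritoneal libraries the highest values were 0.890 for Mfge8 with Lgals3 and 0.790 for Gpnmb with Trem2. These values include the libraries that stood apart, and all genes of a library share its depth.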

How the data were processed

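Gene expression was measured by 3′ QuantSeq FWD libraries from 100 ng RNA, with 75-base single reads, per the labels' protocols. The deposited values are whole-number counts per gene, not normalized; RSEM, Bowtie2 and DESeq2 are named, with no version or role, in the submitters' processing notes, and which genome build and annotation they were made with is not given in the sources used here. Whether counting used strand or molecular identifiers is not stated, so the precision that depth gives covers counting error only. Of 51789 gene IDs 51596 have a symbol.

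The 12 peritoneal and 36 bone marrow-derived libraries were fitted apart with edgeR 4.0.16 (limma 3.58.1, R 4.3.3), with TMM scaling, filterByExpr by group (16955 and 11779 genes kept), 1 mean per group, robust quasi-likelihood F-tests and two-sided Benjamini-Hochberg adjustment over all genes. The procedure was tested on simulated counts. Alternatives were median-ratio (RLE) and total-count scaling, no filter, DESeq2 1.42.0, only the groups compared, a replicate block and leaving out each library. Members and gene lists were chosen with earlier results of these data known. Besides the members, the called gene with the largest rise or fall of a list is named, and for likeness the nearest genes by correlation. Promoter sequences are RefSeq's (GRCm38.p6), positions GENCODE M21 (GRCm38). Samples whose genotype field reads wild-type but whose title says KO were grouped by title. Replicates of a group differed beyond counting noise.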

Additional observations from a re-analysis of the deposited data

Results flagged for a closer look

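In 14 pairs of gene and comparison, an effect differed between 2 sets of cells by a test of the difference itself (edgeR interaction contrast, adjusted over all 11779 genes). Each value is a difference of log2 fold changes ± SE. No explanation was tested.

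Of these, 6 concern AP-3-84 and rest on KO_M0, in which treated replicates 1 and 2 stood apart. The Trem2 response was -1.59 ± 0.31 in KO_M0 and 0.18 ± 0.30 in WT_M0, a difference of -1.77 ± 0.43 (adjusted p = 0.00613). It was -0.040 ± 0.31 in KO_M1 and 0.052 ± 0.30 in KO_M2, which differed from KO_M0 by 1.55 ± 0.44 (adjusted p = 0.0315) and 1.65 ± 0.43 (adjusted p = 0.0105). For Tyrobp, KO_M0 differed from WT_M0 by -0.76 ± 0.27 (adjusted p = 0.0465) and KO_M2 from KO_M0 by 0.92 ± 0.27 (adjusted p = 0.0179). For Fabp5, KO_M2 differed from KO_M0 by 1.25 ± 0.42 (adjusted p = 0.0426). Without KO_M0 AP-3-84 replicates 1 and 2, an alternative chosen after seeing the data, none of the 6 was called (edgeR; the smallest adjusted p was 0.232, for Trem2 between KO_M0 and WT_M0).

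With only the groups compared, 5 of these 6 calls ended, all 3 on Trem2 (adjusted p = 0.0983 for KO_M0 against WT_M0, 0.204 for KO_M1 against KO_M0 and 0.148 for KO_M2 against KO_M0) and those of Fabp5 (0.122) and Tyrobp (0.149) between KO_M2 and KO_M0. Leaving out single libraries ended 4 of the 6. That on Trem2 between KO_M1 and KO_M0 was lost without 1 of KO_M0 vehicle replicates 2 and 3, KO_M0 AP-3-84 replicates 1 and 2, KO_M1 vehicle replicates 1, 2 and 3 or KO_M1 AP-3-84 replicates 1 and 2 (log2 fold changes 1.18 to 1.59, adjusted p from 0.0529 to 0.101). The Tyrobp call was lost without 1 of WT_M0 vehicle replicates 1, 2 and 3, WT_M0 AP-3-84 replicates 1, 2 and 3, KO_M0 vehicle replicates 1, 2 and 3 or KO_M0 AP-3-84 replicates 1 and 2 (log2 fold changes -0.80 to -0.58, adjusted p from 0.0559 to 0.18) for KO_M0 against WT_M0 and without 1 of KO_M0 AP-3-84 replicate 2, KO_M2 vehicle replicates 2 and 3 or KO_M2 AP-3-84 replicate 2 (log2 fold changes 0.72 to 0.77, adjusted p from 0.0716 to 0.0886) for KO_M2 against KO_M0. The Fabp5 call was lost without 1 of KO_M0 vehicle replicates 1, 2 and 3, KO_M0 AP-3-84 replicates 1 and 2, KO_M2 vehicle replicates 2 and 3 or KO_M2 AP-3-84 replicates 1, 2 and 3 (log2 fold changes 0.94 to 1.33, adjusted p from 0.0538 to 0.137).

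The other 8 concern the response to polarization in vehicle. LPS and IFN-γ changed Spp1 by -2.22 ± 0.47 in WT and 0.42 ± 0.46 in KO, a difference of 2.64 ± 0.65 (adjusted p = 0.00518). The same contrast gave -1.49 ± 0.27 (adjusted p = 1.53e-04) for Tyrobp and -1.22 ± 0.43 (adjusted p = 0.0461) for Trem2. IL-4 and IL-13 gave differences of 1.80 ± 0.64 (adjusted p = 0.0388) for Spp1, -1.75 ± 0.43 (adjusted p = 0.00371) for Trem2, -1.41 ± 0.27 (adjusted p = 2.81e-04) for Tyrobp, -1.27 ± 0.42 (adjusted p = 0.0266) for Fabp5 and -1.32 ± 0.47 (adjusted p = 0.0391) for Lgals3. All 8 differences use the M0 vehicle libraries of both genotypes, so they are not independent of the genotype calls in M0. Mean Spp1 in vehicle was 318 CPM in WT_M0 and 74.4 CPM in KO_M0. It was 68.3 and 99.6 CPM in WT_M1 and KO_M1, and 198 and 161 CPM in WT_M2 and KO_M2. KO against WT did not pass for Spp1 in M1 or M2 in the main fit. The calls on Spp1 in M1, Tyrobp in both and Trem2 in M2 were kept in all 18 alternatives. The Trem2 call in M1 was lost without 1 of WT_M0 vehicle replicates 1, 2 and 3, WT_M1 vehicle replicates 1, 2 and 3, KO_M0 vehicle replicates 1, 2 and 3 or KO_M1 vehicle replicates 1, 2 and 3 (log2 fold changes -1.28 to -1.12, adjusted p from 0.0559 to 0.0975). In M2 the Spp1 call was lost without 1 of WT_M0 vehicle replicates 1 and 2, WT_M2 vehicle replicates 2 and 3, KO_M0 vehicle replicates 2 and 3 or KO_M2 vehicle replicates 2 and 3 (log2 fold changes 1.52 to 1.75, adjusted p from 0.0681 to 0.109), that on Fabp5 without 1 of WT_M0 vehicle replicates 2 and 3, WT_M2 vehicle replicate 1, KO_M0 vehicle replicate 3 or KO_M2 vehicle replicates 2 and 3 (log2 fold changes -1.24 to -1.05, adjusted p from 0.0511 to 0.0862) and that on Lgals3 without 1 of WT_M0 vehicle replicates 2 and 3, WT_M2 vehicle replicates 2 and 3, KO_M0 vehicle replicates 2 and 3 or KO_M2 vehicle replicates 2 and 3 (log2 fold changes -1.38 to -1.10, adjusted p from 0.0531 to 0.118).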

How the results depend on the processing

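Of 63 called pairs of gene and comparison, 31 kept the call in every alternative, 32 lost it in at least 1, 28 of these on leaving out 1 library, and 0 changed direction. The 10 ascites calls held in each, with those on Gpnmb and Mfge8, which this contrast chose in vehicle, given as a description only. AP-3-84 against vehicle gave 8 calls, 26 with no filter on low counts, 4 with only the groups compared and 3 without KO_M0 AP-3-84 replicates 1 and 2 (leave-one-out 3 to 12, with 3 without KO_M0 AP-3-84 replicate 1 or 2 and 5 without KO_M0 vehicle replicate 1 or 2). Differences between AP-3-84 responses gave 6, then 36, 1 and 0 in these settings (leave-one-out 2 to 19, with 2 without KO_M0 AP-3-84 replicate 2, 19 without its replicate 3 and 13 without KO_M2 vehicle replicate 1). KO against WT gave 10, and 18 with no filter (leave-one-out 8 to 11). The shares of all genes called with no filter are not given here. M1 and M2 against M0 gave 21 (16 to 21), and the genotype difference of that response 8 (4 to 8, 4 or 5 without WT_M0, WT_M2, KO_M0 or KO_M2 vehicle replicates 2 or 3). With no filter, further members were called in both of these, Gpnmb and Mfge8 among them. The cause of these shifts was not tested.

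Most same-numbered libraries did not vary together (r over 0.1 in 4 of 24 pairs, from -0.529 to 0.511, 6 best with their own number). The main fits therefore used no pairing. The 4 pairs were KO_M1 replicates 1 and 2 (0.444 and 0.511) and WT_M2 replicates 1 and 3 (0.245 and 0.275). With 3 libraries a group, this check cannot exclude pairing in some populations. The replicate block was the number within each population for AP-3-84 and its response differences, and the number across all groups for the other contrasts. With it, AP-3-84 gave 8 calls, its response differences 12, and M1 and M2 against M0 21. KO against WT gave 10, the genotype difference 9 and ascites 10. Fabp5 in ascites was then not called for AP-3-84 (edgeR adjusted p = 0.0637).

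With total-count scaling in place of TMM, the median of all genes moved by over 0.1 on the log2 scale in several contrasts: -0.30 for M1 and -0.20 for M2 against M0 in WT, 0.27 and 0.19 for KO against WT in M1 and M2, and 0.11 for AP-3-84 in WT_M2. The share of higher calls moved too, from 943 of 1825 to 439 of 2603 for M1 in WT, from 1497 of 2761 to 940 of 3060 for M2 in WT, from 699 of 1372 to 1863 of 2093 for KO against WT in M1, from 143 of 419 to 490 of 640 in M2, from 27 of 142 to 39 of 118 for AP-3-84 in WT_M2 and from 286 of 303 to 239 of 292 in ascites. The members' calls that ended were Cd9 and Trem2 for M2 in WT, Fabp5 for M2 in KO, and the genotype differences of Trem2 in M1 and Lgals3 in M2. Bone marrow-derived libraries were shallower (3081707 to 4645148 counts, against 15532373 to 19417581), which limits low genes such as Fabp4 (10 counts at lowest).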
